A study of Mus musculus with 2 samples.

Results

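A set of 10 genes that most cells switch on within minutes of a stimulus or a stress were followed through the cells of the mouse temporomandibular joint (TMJ). They were Fos, Fosb, Jun, Junb, Egr1, Atf3, Ier2, Nr4a1, Hspa1a and Hspa1b, 10 of the 32285 features of the deposited matrices, taken by symbol from the feature list, and each symbol matched a single row in both libraries. The first 8 are treated as immediate early genes and the last 2, both encoding the inducible Hsp70 chaperone, as heat shock genes, and sums over either group use those names. The joints came from WT C57BL/6 mice, 8 to 10 weeks old by the labels, that had received PBS or complete Freund's adjuvant (CFA, an oil emulsion of killed mycobacteria that inflames the joint), and each condition was sequenced as 1 droplet library. By the study's methods the mice were female, were injected into the joint at 8 weeks of age and were sampled 3 weeks later, n = 3 joints or animals were digested together per condition, the collected tissue took in condyle, disc, temporal bone, muscle and ligament, and CD45+ immune cells were depleted before loading.

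Immediate early genes need no new protein to be transcribed: signals that reach serum response factor, its Elk partners and CREB start them within minutes, and their short-lived transcripts decay again soon after. Fos and Jun family proteins pair to form the transcription factor AP-1, whereas Hspa1a and Hspa1b answer to heat shock factor when proteins misfold. In solid tissues both sets are also known to be induced by enzymatic dissociation at body temperature, so their transcripts in single cells record the joint and the time in the digest together. The tissue was digested in 1 tube per condition. The labels and the methods differ on that step: collagenase type I (3 mg/ml) and Dispase II (4 mg/ml) over 30 minutes in the former, collagenase P (1 mg/ml) and Dispase II (2 mg/ml) over 25 minutes in the latter, at 37 °C in both. No undigested sample was analysed here, and the share of any level below that arose during digestion was not tested.

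Most of the genes are short. In GRCm38 the Fos gene lies at chr12:85473890-85477273 on the plus strand and has 4 exons, Fosb at chr7:19302696-19310051, Jun at chr4:95049034-95052222 and Junb at chr8:84974484-84978718, all on the minus strand. Ier2 lies on the same chromosome as Junb, at chr8:84661331-84662852, Nr4a1 at chr15:101254269-101274795 and Atf3, the longest of the set, at chr1:191170296-191218039. Jun, Ier2, Hspa1a (chr17:34969190-34972156) and Hspa1b (chr17:34956436-34959238) each consist of 1 exon. The promoters of 8 of the 10 genes were found in RefSeq's GRCm38.p6 annotation, and 2 are shown: that of Fos, the most abundant member, and that of Hspa1a, which carries the element heat shock factor is known to bind. The Fos sequence is the 250 bases before the start site (chr12:85473640-85473889, plus strand), with the TATA box at 33 to 28 bases and a GC box, on the reverse strand, at 74 to 69 bases before the start in capitals. The Hspa1a sequence is chr17:34972157-34972406 on the minus strand, with a heat shock element at 104 to 97 bases before the start in capitals.
Fos promoter: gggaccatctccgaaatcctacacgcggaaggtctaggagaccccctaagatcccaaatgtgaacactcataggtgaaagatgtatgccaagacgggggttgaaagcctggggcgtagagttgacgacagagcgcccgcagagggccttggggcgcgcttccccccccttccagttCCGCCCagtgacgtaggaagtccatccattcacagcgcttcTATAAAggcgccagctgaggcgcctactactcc
Hspa1a promoter: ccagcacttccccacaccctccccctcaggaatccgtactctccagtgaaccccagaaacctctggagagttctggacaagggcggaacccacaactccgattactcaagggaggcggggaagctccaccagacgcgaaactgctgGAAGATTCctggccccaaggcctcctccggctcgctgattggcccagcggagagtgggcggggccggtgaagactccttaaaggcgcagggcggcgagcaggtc

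The heat shock element was searched as GAANNTTC on both strands and was found in 6.69% of 32851 promoters of the same 250 bases. Among the 8 it stood in Hspa1a, at the same distance in Hspa1b, and in Jun at 128 to 121 bases before the start. TATAAA was held by 12.4% and GGGCGG by 32.7% of all promoters. None of the 8 held the full cAMP response element TGACGTCA (1.55% of all promoters), the AP-1 site TGANTCA (6.75%) or a CArG box (1.47%) within these 250 bases. The Hspa1a and Hspa1b promoters were the same in 247 of 250 letters. The transcripts are near copies too: 49.3% of all 90-base windows of Hspa1a recurred in Hspa1b and 52.3% of those of Hspa1b in Hspa1a. In the last 600 bases, where 3′ chemistry mostly counts molecules, 0 of 511 windows of either gene were shared. Reads from further inside the pair can match both copies, so each single-gene value is less certain than their sum.

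Values are counts of unique molecular identifiers (UMIs, 1 per captured transcript). The PBS library held 51146169 UMIs in 7671 barcodes and the CFA library 53517206 in 5709. Barcodes with at least 500 genes, at most 10% mitochondrial UMIs and at most 1% hemoglobin UMIs left 2667 PBS and 4014 CFA cells with median depths of 7022 and 6509.5 UMIs. The hemoglobin limit alone took 3178 PBS barcodes and 339 CFA barcodes. The libraries shared 10 barcode sequences as deposited and 2 among the kept cells. Cells fell into 35 clusters, and 29 of these were named X-like from markers that are not among the 10 genes, while 6 with 682 cells stayed unnamed. The named clusters each showed 3 or more markers of their class, for example all 7 endothelial markers in each of 4 endothelial-like clusters and 6 satellite cell markers, Pax7 and Myf5 included, in the satellite-like cluster. The comparable classes, with at least 50 cells in both libraries, were 10, and macrophage-like cells and macrophage-like cells with osteoclast markers (Acp5, Dcstamp) reached 50 in CFA only. With 1 library per condition there was no replicate, so no test was made: every interval is a 95% interval for counting error only, and an effect of CFA cannot be told apart from any other difference between the libraries. Levels are CPM, UMIs of a gene scaled to 1000000 UMIs of the class. A ratio past 2-fold, in genes with at least 20 UMIs over both libraries, was counted as a call, with no statement on significance.

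A floor for these genes was taken from barcodes that should hold mainly free RNA of the droplets. Late erythroid barcodes, in which over 50% of UMIs were hemoglobin, should make little of them, and 311 such barcodes in PBS (median 9026 UMIs) and 190 in CFA (median 8312) were used as the background. They held 3.11 immediate early UMIs per barcode in PBS and 1.45 in CFA, and 0.0225 and 0.163 heat shock UMIs. Some of these UMIs lay in few barcodes: 31 heat shock UMIs in CFA in 5.79% of them, and 66 Atf3 UMIs in PBS in 5.14%. Whether they were all free RNA was not tested. Fos was found in 23.5% of them in PBS and 16.8% in CFA. Endothelial-like cells, at median depths of 5423.5 and 4429 UMIs, held 77.9 and 43.7 immediate early UMIs and 0.718 and 2.98 heat shock UMIs per cell, well above this floor. In CFA the heat shock genes of B cell-like cells (0.167 UMIs per cell) lay near the 0.163 of the erythroid barcodes and those of neutrophil-like cells (0.112) under it. As means, these levels are not told apart from the floor. They rested on few cells: 8 of 150 B cell-like cells held 96% of 25 UMIs, with 12 in 1 cell. In neutrophil-like cells 17 of 349 held 100% of 39 UMIs, with 10 in 1 cell. In PBS the levels of the 2 classes were 0.0810 and 0.169, from 17 and 12 UMIs in all.

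The 8 immediate early genes were highest, as a sum, in muscle satellite-like cells of both libraries. Their sum was 17218 CPM in satellite-like cells of PBS and 28953 in CFA. Mural-like cells (smooth muscle and pericytes) followed with 12805 in PBS and 13617 in CFA, Schwann-like cells with 11690 and 11430, fibroblast-like cells with 10146 and 8767, and tenocyte-like cells with 9414 and 7207. Endothelial-like cells came between the latter 2 in PBS, at 9929, and below both in CFA, at 6556, and chondrocyte-like cells stood at 3782 and 7582. The lowest 3 of the 10 comparable classes were erythroid-like cells at 3403 and 2733, neutrophil-like cells at 2579 and 3269, and B cell-like cells at 1124 and 1546, the last being lowest in both libraries. The B cell-like sums were 5.70 and 8.21 UMIs per cell, beside 3.11 and 1.45 per late erythroid barcode. No level or ratio was corrected for this floor. The highest class exceeded the lowest 15.3-fold in PBS and 18.7-fold in CFA. The intervals of no neighbours in this order overlapped in either library. They cover counting error of summed UMIs only, and 9 of 22 positions moved when levels were taken as a mean over cells. Macrophage-like cells of CFA stood at 5977 and their osteoclast-marker neighbours at 3496. For comparison, all kept cells together held 8249 CPM in PBS and 6625 in CFA.

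**Figure D1:**
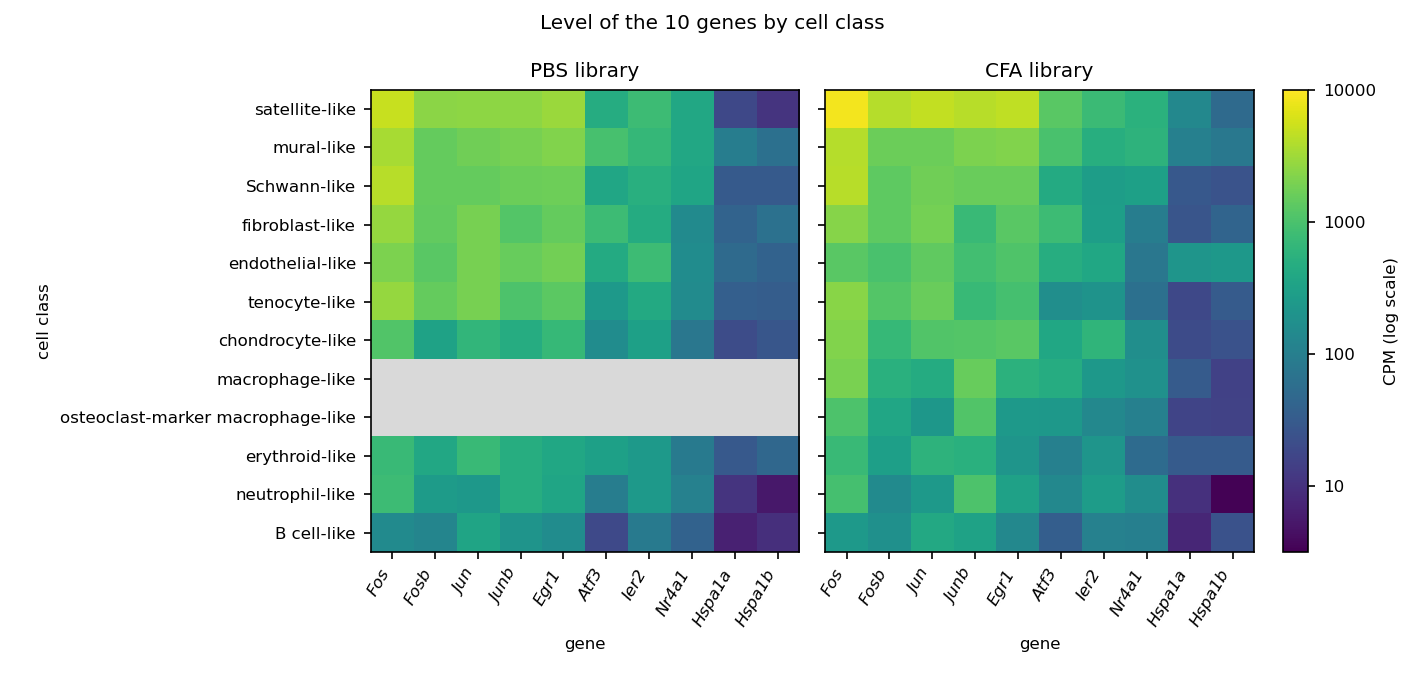
Level of each of the 10 genes (columns) in each cell class (rows) with at least 50 cells, in CPM on a log color scale, for the PBS and the CFA library; gray rows had under 50 cells. The satellite-like row is the brightest for Fos in both panels (5046 and 8585), and the Hspa1a and Hspa1b columns are brightest in the endothelial-like row of CFA (214 and 233).

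Fos, which binds DNA paired with a Jun protein, was the most abundant member over all cells, with 2160 CPM in all kept PBS cells and 1887 in CFA. In PBS it ran from 150 in B cell-like to 5046 in satellite-like cells, and in CFA from 243 to 8585. The PBS value of B cell-like cells, 0.762 UMIs per cell, was near the 0.576 per erythroid barcode, and so was their Fosb, 0.619 against 0.547. Schwann-like cells were next in both libraries, at 4144 and 4155, and mural-like cells after them, at 3489 and 4084, the latter pair overlapping in CFA. Fosb, a second Fos family protein, ranged from 122 in B cell-like to 2447 in satellite-like cells of PBS. In CFA its lowest class was neutrophil-like at 151 and its highest again satellite-like at 4106.

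Jun and Junb, the Jun family partners, ordered the classes differently at the low end. Of the 10 comparable classes Jun was lowest in neutrophil-like cells, at 234 in PBS and 245 in CFA, and highest in satellite-like cells, at 2510 and 4798. Junb was 1065 in neutrophil-like cells of CFA and 1118 in osteoclast-marker macrophage-like cells, where Jun, at 225, overlapped the neutrophil-like value. Myeloid cells of CFA thus held Fos and Junb well above Jun: in macrophage-like cells Fos was 2000, Junb 1547 and Jun 454. In fibroblast-like cells of CFA Fos was again highest, at 2349, but Jun, at 1865, stood above Junb, at 756. These comparisons set 3′ counts of different transcripts side by side, and capture may differ between genes. Whether intronic reads were counted is not given, so an effect of gene length on these counts was not excluded.

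Atf3, a stress-induced member of the ATF/CREB family that mostly represses transcription, had its own order. Mural-like cells were highest in PBS with 963, followed by fibroblast-like cells with 786, while satellite-like cells held 463. In CFA satellite-like cells led with 1256. B cell-like cells held 18.8 and 35.1, the PBS value being 0.0952 UMIs per cell, under the 0.212 per erythroid barcode, so it is not told apart from the floor. Egr1, a zinc finger factor of the growth response, ran from 157 in B cell-like to 3013 in satellite-like cells of PBS. Nr4a1, an orphan nuclear receptor, had the lowest top level of the 8 in PBS, where it ran from 39.5 to 403. Atf3 was scarcer there in B cell-like (18.8 against 39.5) and neutrophil-like cells (95.8 against 109). In CFA Nr4a1 was highest in mural-like cells at 583, whose interval overlapped that of satellite-like cells at 542. Ier2, a small nuclear protein, had the narrowest range in CFA, from 110 to 777, a 7.03-fold span.

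Hspa1a and Hspa1b were far rarer. In PBS their sum ran from 15.97 CPM in neutrophil-like to 158 in mural-like cells, with fibroblast-like cells at 105 and endothelial-like cells at 91.6. In CFA endothelial-like cells moved to the top with 447, and the next were mural-like cells at 187 and satellite-like cells at 186. Only a few neighbours in these orders differed beyond their intervals. In PBS these were mural-like over fibroblast-like cells, and in CFA endothelial-like over mural-like and satellite-like over fibroblast-like cells. B cell-like over neutrophil-like cells in CFA is left aside, because neither value is told apart from the floor in that library. The 2 copies were not in a fixed proportion: Hspa1a exceeded Hspa1b in mural-like cells of PBS (96.9 against 61.0), and the reverse held in fibroblast-like cells (41.5 against 63.7).

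Single cells of a class differed widely. To compare them at 1 depth, each cell was thinned at random to 1000 UMIs, which left out the shallower ones, 55 in PBS and 129 in CFA. In satellite-like cells the median cell then held 16 immediate early UMIs of 1000 in PBS and 31 in CFA, and the 90th percentile was 28 and 46.5. Schwann-like cells included both low and high cells: 24.4% of PBS and 23.3% of CFA cells held 0 while the 90th percentile was 26 in either library. A count of 0 in 1000 UMIs does not show that the genes were silent. Among endothelial-like cells the share at 0 was 8.10% in PBS and 19.9% in CFA. All 8 members were found together in 11.6% of thinned satellite-like cells of CFA but in 0.483% of endothelial-like cells.

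**Figure D2:**
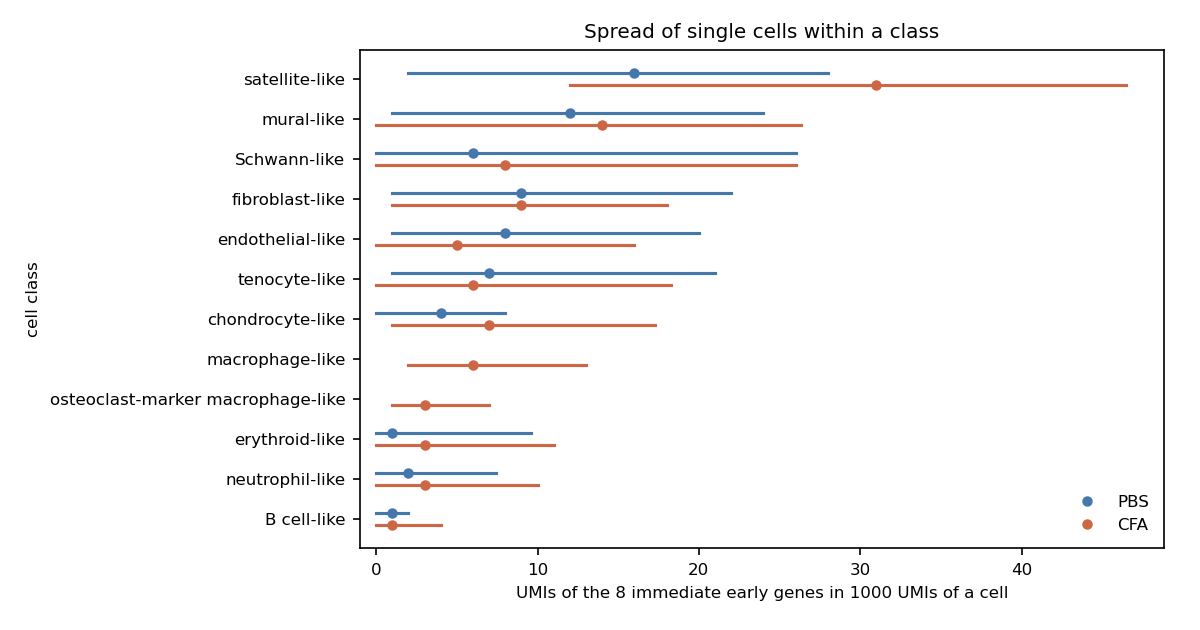
UMIs of the 8 immediate early genes in 1000 UMIs drawn from each cell, by class (rows) and library; points are the median cell and lines run from the 10th to the 90th percentile of cells. Satellite-like cells of CFA sit furthest right (median 31), and B cell-like cells sit at 1 in both libraries.

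CFA and PBS were compared class by class. By summed UMIs, the immediate early sum was higher in CFA in 5 and lower in 5 of the 10 comparable classes. The geometric mean ratio was 1.08 (1.07 to 1.09). This mean turned to 0.9487 with no hemoglobin limit. It was 1.012, over 6 classes, with cells clustered on log-normalized values without integration. No single direction described the joint: the ratio was 2.005 (1.94 to 2.07) in chondrocyte-like, 1.68 (1.63 to 1.73) in satellite-like, 1.38 (1.27 to 1.49) in B cell-like and 1.27 (1.21 to 1.33) in neutrophil-like cells, and 0.660 (0.652 to 0.668) in endothelial-like, 0.766 (0.747 to 0.784) in tenocyte-like, 0.803 (0.764 to 0.843) in erythroid-like and 0.864 (0.854 to 0.875) in fibroblast-like cells. Mural-like and Schwann-like cells lay close to 1, at 1.06 (1.05 to 1.08) and 0.978 (0.958 to 0.997). With each cell thinned to the same depth, erythroid-like and Schwann-like cells changed direction. In erythroid-like cells the mean count was 2.87 in 85 PBS cells and 3.95 in 59 CFA cells. The median there was 1 and 3, and the share at 0 was 38.8% and 20.3%. In Schwann-like cells the mean was 10.27 in PBS and 10.96 in CFA. The mean kept its direction in the other comparable classes. The heat shock sum was higher in 4 classes and lower in 6. Its interval lay above 1 in 4, below 1 in 2 and held 1 in 4. The 4 higher classes included B cell-like cells, whose CFA level was not told apart from the floor. The geometric mean ratio of 1.34 (1.18 to 1.52) rested on endothelial-like and satellite-like cells: without the former it was 1.16 and without the latter 1.13.

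**Figure D3:**
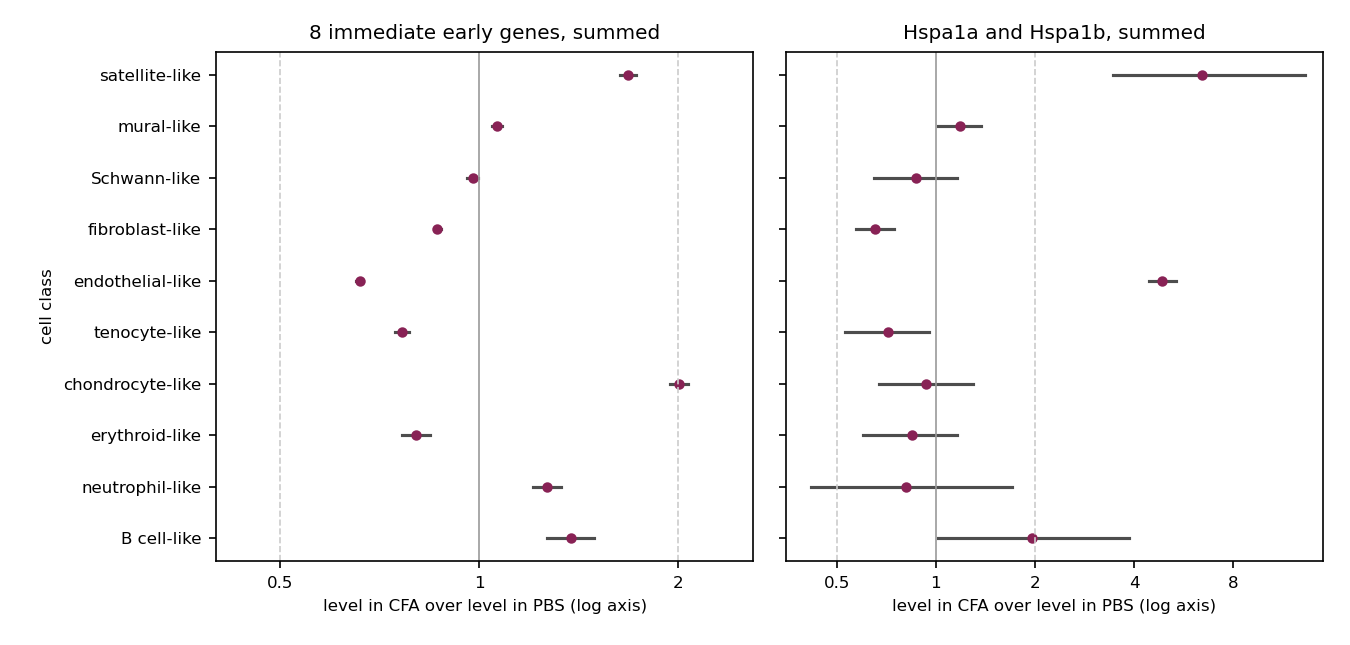
Ratio of the level in CFA to the level in PBS for each cell class (rows, log axis), for the 8 immediate early genes summed and for Hspa1a and Hspa1b summed; bars are 95% counting intervals and the vertical line marks 1. Chondrocyte-like cells lie at 2.005 and endothelial-like cells at 0.660 in the first panel; in the second, endothelial-like cells lie at 4.88 and satellite-like cells at 6.44.

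In endothelial-like cells, which line blood vessels, the 2 groups of genes parted: most immediate early genes were lower in CFA and both heat shock genes were several-fold higher. Hspa1a was 52.1 CPM in PBS (307 UMIs, 752 cells) and 214 in CFA (1481 UMIs, 1038 cells), a ratio of 4.11 (3.64 to 4.67). Hspa1b was 39.5 and 233, a ratio of 5.88 (5.13 to 6.78). Together they were 4.88-fold higher (4.45 to 5.35). The share of cells with either was 32.2% in PBS and 52.9% in CFA as counted, and 8.10% and 28.5% at 1000 UMIs per cell, against 1.61% and 5.79% of the deeper erythroid barcodes, and 11 PBS and 2 CFA cells were left out by the thinning. Cells with 3 or more heat shock UMIs made up 8.91% of PBS and 31.0% of CFA cells. The top 5% of cells held 40.6% of these UMIs in PBS and 36.3% in CFA.

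Of the immediate early genes in endothelial-like cells, Ier2 was 803 in PBS and 386 in CFA, a ratio of 0.481 (0.458 to 0.504), and Nr4a1 158 and 76.9, a ratio of 0.486 (0.436 to 0.541). Junb was 1534 and 860 (0.560), Egr1 1813 and 1094 (0.604), Fos 2012 and 1282 (0.637), Jun 1913 and 1385 (0.724) and Fosb 1254 and 988 (0.788). Atf3 alone was not lower, at 442 and 483, with a ratio of 1.09 (1.04 to 1.15). At 1000 UMIs per cell the share of cells with Fos was 64.5% in PBS and 44.5% in CFA (83.9% and 69.2% as counted), and that with Nr4a1 13.1% and 5.12%. Of the 10 members, 2 were called higher, Hspa1a and Hspa1b, and 2 lower, Ier2 and Nr4a1; over all 12706 genes of this class 5.13% were called higher and 5.82% lower. The median log2 ratio of the members was -0.56, that of all genes 0.00.

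The heat shock ratio lay above 1 in each endothelial-like cluster. The sum was 84.4 in PBS and 429 in CFA in the largest cluster, which had no subtype name (5.08-fold), 114 and 668 in the capillary-like cluster (5.85), 52.6 and 303 in the venular-like cluster (5.76) and 124 and 630 in the arterial-like cluster (5.08). A cluster of low-depth cells with 6 endothelial markers that was left unnamed gave 43.5 and 287 (6.60, 2.50 to 24.7, from 4 and 99 UMIs). The immediate early sum was lower in each too, but unequally: 10537 and 4815 in capillary-like (0.457), 9392 and 6291 in venular-like (0.670), 8973 and 6321 in the largest (0.704) and 11465 and 9341 in arterial-like cells (0.815). Atf3 went both ways, with ratios of 0.497 in capillary-like and 1.60 in arterial-like cells. Nr4a1 and Ier2 reached 0.149 and 0.283 in capillary-like cells. Endothelial-like cells also differed in mitochondrial content, with a median of 1.61% of UMIs in PBS and 0.479% in CFA; among cells with at least 1%, the ratio was 4.61 for the heat shock sum and 0.655 for the immediate early sum.

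**Figure D4:**
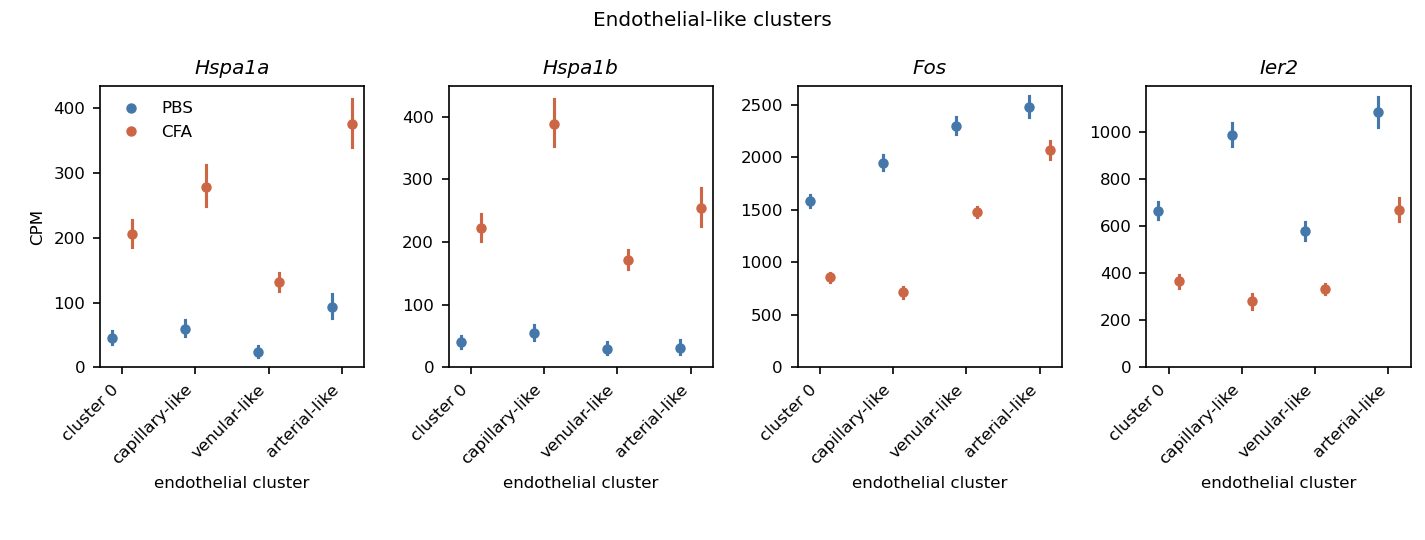
Levels in CPM (linear axes from 0) of Hspa1a, Hspa1b, Fos and Ier2 in the 4 endothelial-like clusters, the largest of them shown as cluster 0, PBS and CFA side by side with 95% counting intervals. Hspa1a and Hspa1b stand higher in CFA in all 4 clusters, and Fos and Ier2 stand lower in all 4, with Fos in the capillary-like cluster at 1947 against 713.

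Other chaperones of endothelial-like cells did not all follow. Of 14 other heat shock and chaperone genes 13 could be measured, 1 was called higher and 0 lower, with a median log2 ratio of 0.15. The 1 was Hsph1, the Hsp110 that recharges Hsp70, at 24.6 and 91.0 (3.70, 3.08 to 4.46). Hsp90aa1, the inducible Hsp90, was 210 and 406 (1.94, 1.81 to 2.07), while its constitutive relative Hsp90ab1 (1.11) and Hspa8 (0.982), the constitutive Hsp70, were near 1. Dnajb1, an Hsp40 that hands clients to Hsp70, was lower, at 120 and 65.8 (0.549, 0.487 to 0.618). Of 24 other immediate early and feedback genes, 1 was called higher (Myc, 28 and 75 UMIs) and 5 lower, Egr2, Egr3, Ccn1, Gadd45b and Arc, with a median log2 ratio of -0.28. Dusp1, a phosphatase that ends MAP kinase signalling, was 684 and 443 (0.648), and Klf2, a flow-responsive factor of endothelium, 1900 and 1561 (0.821). Jund, the AP-1 member that is expressed without a stimulus, was 1520 and 1050 (0.691).

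Satellite-like cells, the stem cells of skeletal muscle, had both groups higher in CFA. Fos was 5046 in 56 PBS cells and 8585 in 87 CFA cells (1.70, 1.61 to 1.79), Jun 2510 and 4798 (1.91), Fosb 2447 and 4106 (1.68), Junb 2531 and 4251 (1.68) and Egr1 3013 and 4637 (1.54). Atf3 was 463 and 1256 (2.71, 2.30 to 3.21). Nr4a1, at 403 and 542 (1.35, 1.11 to 1.64), had a smaller ratio, and Ier2 was 805 and 777 (0.965, 0.833 to 1.12). Hspa1a rested on 7 and 81 UMIs, 18.4 and 135 CPM (7.31, 3.39 to 18.8), and Hspa1b on 4 and 31 UMIs, 10.5 and 51.6 CPM (4.90, 1.73 to 19.1). In CFA 4 of the 87 cells held 41.1% of the heat shock UMIs. Of the 10 members 3 were called higher and 0 lower, beside 8.21% and 7.04% of 6319 genes. At 1000 UMIs Fos was found in 78.6% and 93.02% of cells and Atf3 in 21.4% and 54.7%.

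Among 23 measured other immediate early genes of satellite-like cells 5 were called higher and 1 lower. Klf2 was 94.7 and 620 (6.55, 4.65 to 9.497), Zfp36, which destabilizes cytokine mRNA, 450 and 1231 (2.74), and Socs3, an inhibitor of cytokine receptor signalling, 339 and 762 (2.24), with Ccn2 and Csrnp1 the others. Egr3 was lower, at 108 and 44.9 (0.416, 0.246 to 0.693). Of the other chaperones Hspb1, the small Hsp27, was 92.1 and 263 (2.85) and Hspe1, a mitochondrial one, 282 and 140 (0.496).

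Chondrocyte-like cells, the cartilage-forming cells, had the highest ratio of the immediate early sum, 3782 in 57 PBS cells and 7582 in 88 CFA cells, and no difference in heat shock genes beyond counting error (47.7 and 44.5, 0.933, 0.672 to 1.30). Junb was 461 and 1145 (2.48, 2.28 to 2.71), Atf3 158 and 380 (2.40, 2.07 to 2.80), Nr4a1 77.0 and 171 (2.22, 1.79 to 2.77) and Fosb 326 and 689 (2.11, 1.90 to 2.35). The other 4 lay just under the 2-fold line, Ier2 at 1.98, Fos at 1.94, Egr1 at 1.86 and Jun at 1.76. With 50 components in the clustering all 4 calls ended, with Junb at 1.66, Atf3 at 1.81, Nr4a1 at 1.28 and Fosb at 1.38. Thus 4 of 10 members were called higher and 0 lower, beside 6.21% and 6.17% of 9838 genes, and the median log2 ratio was 0.97 for the members and -0.07 for all genes. Of the other immediate early genes, 12 of 23 measured were called higher and 0 lower, with a median log2 ratio of 1.12. Btg2, an antiproliferative gene, was 196 and 843 (4.31), Socs3 59.3 and 229 (3.86) and Dusp1 312 and 764 (2.45). The median chondrocyte-like cell held 21842 UMIs in PBS and 15641 in CFA, and at 1000 UMIs per cell the median count of immediate early UMIs was 4 and 7.

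Tenocyte-like cells, which make tendon, had all 10 members lower in CFA. Nr4a1 was 156 and 61.5 (0.393, 0.306 to 0.501) and Ier2 425 and 197 (0.463, 0.403 to 0.531), the 2 members called lower, with 0 called higher, beside 3.91% of 10819 genes called higher and 7.21% lower. The others ran from 0.503 for Hspa1a (0.305 to 0.798, 85 and 24 UMIs) to 0.933 for Hspa1b (0.630 to 1.37). Of 23 other immediate early genes 5 were called lower and 0 higher, with Klf2 at 772 and 219 (0.284) and Gadd45b at 243 and 79.6 (0.327). Klf2 was thus 0.284 here and 6.55 in satellite-like cells; the difference between the classes was not tested.

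Fibroblast-like cells had 0 members called in either direction, where 8.41% of 13147 genes were called higher and 5.18% lower. Fos was 2751 and 2349 (0.854), Jun 1916 and 1865 (0.973) and Atf3 786 and 799 (1.02), whereas Nr4a1 (149 and 95.8), Ier2 (447 and 288) and Junb (1151 and 756) had ratios of 0.642, 0.645 and 0.657. Hspa1a and Hspa1b were both lower, 0.645 (0.520 to 0.797) and 0.663 (0.559 to 0.786). The largest cluster of this class differed between the libraries, sublining-like cells in PBS (205 of 472) and adventitial-like cells in CFA (159 of 366). Within sublining-like cells the immediate early ratio was 0.780, within adventitial-like cells 0.949 and within the third cluster 0.719, and the heat shock ratio was 0.737, 0.623 and 0.831.

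Mural-like and Schwann-like cells had the sums closest to 1. In mural-like cells 0 members were called, beside 3.74% of 11083 genes called higher and 5.16% lower, and the ratios furthest from 1 were those of Nr4a1, 400 and 583 (1.46, 1.33 to 1.59), Ier2, 668 and 497 (0.743), and Hspa1b, 61.0 and 79.2 (1.30, 1.02 to 1.65). In the mural-like cluster with most CFA cells (73 PBS, 140 CFA) the immediate early ratio was 1.05 and in the one with most PBS cells (82 and 69) 0.921. In Schwann-like cells, the glia of peripheral nerve, Fos was 4144 and 4155 (1.003, 0.970 to 1.04), and Ier2 508 and 279 (0.550, 0.491 to 0.615) had the lowest ratio. There, too, 0 members were called, beside 8.48% and 2.90% of 10819 genes. The near-equal sum combined myelinating-like cells, at 10507 and 11900 (1.13), with nonmyelinating-like cells of the larger such cluster, at 18230 and 13960 (0.766).

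Among blood cells, which the CD45 depletion would reduce, neutrophil-like cells had 1 member of 9 measured called higher and 0 lower, beside 9.16% and 13.5% of 9236 genes. It was Junb, 483 and 1065 (2.20, 1.98 to 2.46), which stayed past 2-fold in 6 of 11 alternatives (1.59 to 2.64). Different clusters held most of the class, immature-like cells in PBS (48 of 71) and mature-like cells in CFA (181 of 349). Within immature-like cells Junb was 346 and 615 (1.78, 1.54 to 2.06) and the immediate early sum 2265 and 2315 (1.02, 0.964 to 1.08). Mature-like cells held 3716 in 16 PBS cells and 6679 in CFA. The other immediate early genes of the class included 10 of 22 called higher and 2 lower, among them Nfkbia, the feedback inhibitor of NF-κB, at 391 and 1426 (3.64).

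B cell-like cells had 2 of 9 measured members called higher and 0 lower, beside 3.48% and 5.37% of 8564 genes. Nr4a1, which antigen receptor signalling induces, was 39.5 and 102 (2.57, 1.75 to 3.83, from 42 and 81 UMIs), past 2-fold in 10 of 12 alternatives and 1.57 in the lowest. Hspa1b rested on 10 and 19 UMIs, 0.0476 and 0.127 per cell beside 0.00965 and 0.0789 per erythroid barcode. Its ratio of 2.54 turned to 0.697 with no hemoglobin limit, and the heat shock level of this class in CFA was not told apart from the floor above. Of the 25 heat shock UMIs of this class in CFA, 12 lay in 1 cell. Of the other immediate early genes Nr4a2 was 12.2 and 57.7 (4.72, 2.51 to 9.53) and Nr4a3 15.04 and 38.9 (2.59, 1.37 to 5.06). Erythroid-like cells, here only those with at most 1% hemoglobin UMIs, had a median of 17920 UMIs in PBS and 2218 in CFA. With that gap in depth, Atf3 was 306 and 106 (0.346, 0.270 to 0.438), 1 member called lower and 0 higher, beside 8.62% and 12.9% of 10274 genes, while Fos was 753 and 745 (0.990).

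**Figure D5:**
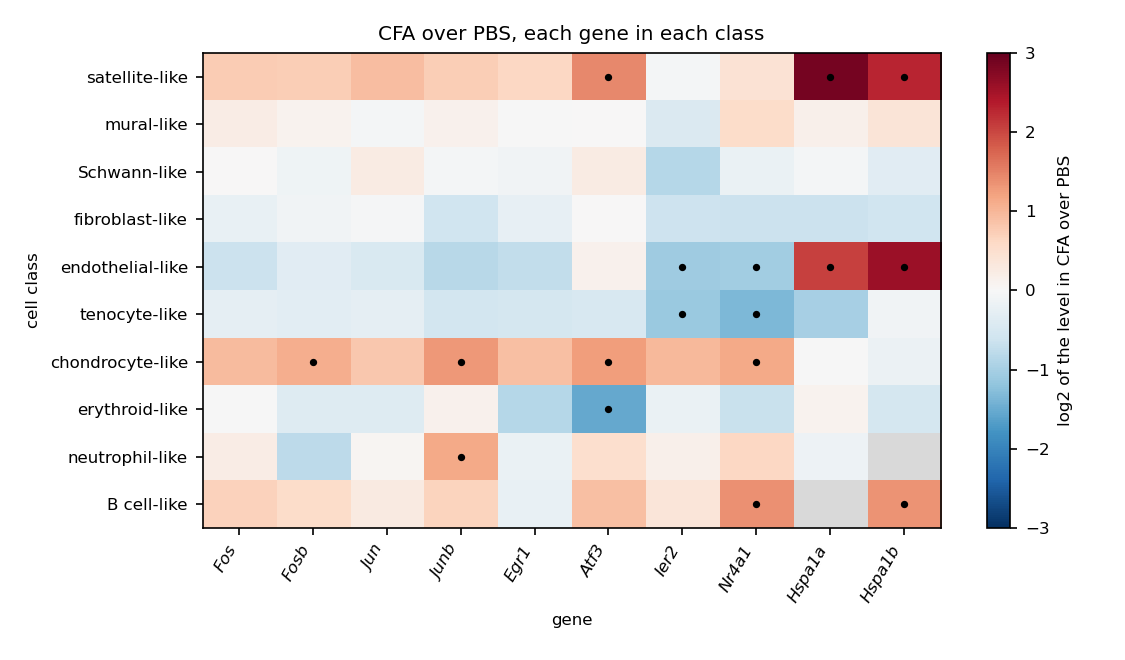
Log2 of the level in CFA over PBS (color) for each of the 10 genes (columns) in the 10 comparable classes (rows). Hspa1a and Hspa1b are strongly positive only in the satellite-like (2.87 and 2.29) and endothelial-like rows (2.04 and 2.56), apart from Hspa1b in B cell-like cells (1.34, from 29 UMIs); the tenocyte-like row is below 0 throughout.

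Read by gene over the 10 classes, Egr1 was lower in CFA in 8 of them and Ier2 in 7, although Ier2 was 1.98-fold higher in chondrocyte-like cells. The intervals lay below 1 in 6 classes for Egr1 and in 5 for Ier2. Atf3 was higher in 8, with the interval above 1 in 6. These included B cell-like cells, whose PBS value was not told apart from the floor. Nr4a1 split evenly, 5 higher and 5 lower, with intervals that excluded 1 in all 10. It was called higher in chondrocyte-like and B cell-like cells, beside 6.21% and 3.48% of all genes. In endothelial-like and tenocyte-like cells it was called lower, beside 5.82% and 7.21%. Fos, Jun and Egr1 passed 2-fold in no class.

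The levels of the members went together across classes. Over the 22 class-by-library levels, which share libraries and digests, Pearson's r on log2 levels was 0.545 to 0.948 in the 28 pairs of immediate early genes (median 0.810), highest for Fosb and Egr1. Hspa1a and Hspa1b gave 0.857. The 16 pairs across the groups gave 0.113 to 0.738 (median 0.558), lowest for Nr4a1 and Hspa1b. The genes outside the set most like the immediate early sum were Socs3 (r = 0.930), Fbxo30 (0.916), Zfyve9 (0.898), Gm26532 (0.898) and Ski (0.893), and those most like the heat shock sum C2cd2 (0.817), Crim1 (0.796), Eogt (0.789), Ptprk (0.789) and Hspb1 (0.787).

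Within classes, cells were compared at 1000 UMIs each. Fos and Egr1 were found together in 48.2% of Schwann-like cells of CFA, where the product of their shares was 32.2% (Spearman's rho 0.744 over 365 cells). Over the 28 immediate early pairs the median of observed over product was 1.51 in these cells and 1.56 in those of PBS. It was 1.48 in endothelial-like cells of CFA and 1.23 in those of PBS, 1.17 in fibroblast-like cells of CFA and 1.21 in those of PBS. In CFA it was 1.24 in neutrophil-like, 1.23 in mural-like, 1.10 in macrophage-like and 1.08 in osteoclast-marker macrophage-like cells. In B cell-like cells of PBS it was 1.41 over only the 19 pairs found together in at least 1 cell. Pairs found together in no cell were left out, so that median is not comparable with the others. Observed over product cannot exceed the inverse of the larger share. It is thus bounded more tightly where a gene is found in more cells, and no order of classes is read from it. Hspa1a and Hspa1b were found together in 6.37% of endothelial-like cells of CFA against a product of 3.03% (rho 0.257), and Fos and Hspa1a in 7.82% against 7.39% (rho 0.016). Between the immediate early and the heat shock sum, rho over cells was -0.101 to 0.185 in the 11 class-and-library sets of at least 200 cells.

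Depth and quality were set beside these values. Endothelial-like cells with the most immediate early UMIs at 1000 (the upper 25%) had a median depth of 5910 UMIs and 1.47% mitochondrial UMIs in PBS, against 4982 and 1.91% in the lower 25%. In CFA these were 4522 and 0.405% against 3735 and 0.471%. In Schwann-like cells of PBS they were 4349.5 and 2.19% against 2985 and 3.46%. Neutrophil-like cells of CFA ran the other way in depth, 2873 UMIs in the upper and 10545 in the lower 25%, the mature-like and immature-like clusters having medians of 2955 and 12227. The part of depth and mitochondrial content in the immediate early levels was not tested.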

How the data were processed

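Single-cell RNA was measured with 3′ droplet libraries, 1 from PBS and 1 from CFA joints. The authors deposited raw UMI counts per gene and barcode, made with Cell Ranger 7.0.1 on mm10 per the submitters' processing notes. Whether intronic reads were counted is not given in the sources used here. The labels name a v2 kit and the study's methods a later version. From the deposited counts, barcodes with at least 500 genes, at most 10% mitochondrial and at most 1% hemoglobin UMIs were kept and normalized with SCTransform 0.4.2. For integration 3000 genes were selected, and any among 80 genes, the members and the stress lists, were dropped before it. The cells were integrated on the rest and clustered with Seurat 5.3.0 (200 components, resolution 1.5). Clusters were named from marker lists, and fewer than 3 detected markers, leading genes of another class or few UMIs left a cluster unnamed. Levels were UMIs summed over a class, as CPM, with exact Poisson intervals, ratios had exact conditional binomial intervals and shares Clopper-Pearson intervals, all at 95% and for counting error only. Each cell was also thinned to 1000 UMIs (2000 as an alternative). Doublets were kept, because the automatic threshold of Scrublet (scanpy 1.11.5) marked 23 of 6681 cells, and leaving out the top 5% of scores was an alternative. The calculations were tested on simulated data. Python 3.11.15, scipy 1.17.1 and R 4.3.3 were used.

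The members, gene lists and markers were chosen with earlier results of these data known. All 10 members were named in every class with at least 50 cells in both libraries, with, for both sums, the 5 other genes of highest Pearson correlation of log2(CPM + 10) over the class-by-library levels, among genes with at least 50 CPM in 1 of them. Genes of the 6 gene lists singled out in the text were picked after their values were seen. Promoter sequences are from RefSeq, gene positions from the GRCm38 annotation. Alternatives changed the filters, clustering, naming, scaling and doublet treatment. The split of endothelial-like clusters, the mitochondrial minimum and the means without endothelial-like or satellite-like cells were chosen after seeing the data.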

Additional observations from a re-analysis of the deposited data

Results flagged for a closer look

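For each of the 10 members and both sums, the counting interval of the ratio of CFA to PBS lay above 1 in at least 1 cell class and below 1 in at least 1 other, in the single library pair. The extremes are given for both sums, which also passed 2-fold in a class, and for Atf3 and Nr4a1, the members past 2-fold in both directions. The immediate early sum had its highest ratio in chondrocyte-like cells, 2.005, and its lowest in endothelial-like cells, 0.660. The heat shock sum ran from 6.44 in satellite-like cells to 0.656 in fibroblast-like cells. Atf3 ran from 2.71 in satellite-like to 0.346 in erythroid-like cells, the latter with a gap in depth between the libraries. Nr4a1 ran from 2.57 in B cell-like to 0.393 in tenocyte-like cells. These differences between classes were not tested, since there was 1 library per condition.

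Barcodes that the hemoglobin limit left out held the genes above the level of the late erythroid barcodes too. The 2867 PBS barcodes with over 1% and up to 50% hemoglobin UMIs had 20.9 immediate early and 0.221 heat shock UMIs each at a median depth of 2440 UMIs, and the 149 such CFA barcodes had 23.1 and 0.591 at 13146 UMIs. The erythroid barcodes over 50% hemoglobin held 3.11 and 0.0225 in PBS and 1.45 and 0.163 in CFA.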

How the results depend on the processing

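No paired analysis was possible because there was 1 library per condition, and for the same reason no replicate could be left out. The limits are those of 2 libraries: no ratio has a replicate error, genes with few UMIs (Hspa1a and Hspa1b in satellite-like, B cell-like and neutrophil-like cells) have wide counting intervals, and the digestion is shared by all cells of a library. Of 1027 alternative values of the 98 member ratios, 838 lay within the main counting interval, 188 moved out of it and 1 reversed, and 954 stayed on the same side of 1. An alternative that left a class under 50 cells in either library gave no value. Calls in chondrocyte-like, tenocyte-like and erythroid-like cells thus rest on 9, 8 and 6 alternatives, against 12 in endothelial-like cells. Of the 174 alternative values of the 17 ratios past 2-fold, 157 stayed past it. Hspa1b in B cell-like cells went from 2.54 to 0.697 with no hemoglobin limit. Calls that fell under 2-fold in at least 1 alternative, with their ranges, were Junb in neutrophil-like cells (1.59 to 2.64, kept in 6 of 11), Junb (1.66 to 2.66), Nr4a1 (1.28 to 3.10), Fosb (1.38 to 2.57) and Atf3 (1.81 to 2.57) in chondrocyte-like cells, Nr4a1 in B cell-like (1.57 to 3.16) and endothelial-like cells (0.392 to 0.517), and Ier2 in tenocyte-like cells (0.442 to 0.547). Thinning to 2000 in place of 1000 UMIs raised 189 of 200 shares.

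The mean immediate early ratio over classes, 1.079, was 0.9487 with no hemoglobin limit, 1.098 at a mitochondrial limit of 5% and 1.112 at 1000 genes. It was 1.054 at resolution 0.8, 1.099 with 50 components and 1.012 with cells clustered on log-normalized values without integration. It was 1.095 with the members kept for clustering and also with each cell classed on its own. Without the top 5% of doublet scores it was 1.114. Median-ratio scaling gave 1.066 and a mean over cells 1.19. With hemoglobin, mitochondrial and ribosomal genes left out of the total it was 1.064. It was 1.14 without endothelial-like and 1.027 without satellite-like cells. The comparable classes behind this mean numbered 10 and, where names changed, as few as 6. In endothelial-like cells the ratio of 0.6602 was 0.6765 with no hemoglobin limit and 0.6868 with clusters from log-normalized values. It was 0.636 without the top 5% of doublet scores. In the unnamed, capillary-like, venular-like and arterial-like clusters it was 0.7045, 0.4569, 0.6698 and 0.8148. In fibroblast-like cells 0.8641 became 0.9049 with no hemoglobin limit and 0.8752 with a 5% mitochondrial limit. With 50 components it was 0.9054 and with clusters from log-normalized values 0.8991. It was 0.9598 with each cell classed on its own, 0.9198 as a mean over cells and 0.8479 with the reduced total. The mean heat shock ratio of 1.342, over 10 classes, became 1.623 at resolution 0.8 (7 classes) and 1.54 with 50 components (8 classes). With clusters from log-normalized values it was 1.883 (6 classes). These means do not cover the same classes. It was 1.163 without endothelial-like and 1.128 without satellite-like cells. The endothelial-like heat shock ratio of 4.878 was 5.851 and 5.762 in the capillary-like and venular-like clusters, and the fibroblast-like one of 0.6559 was 0.8264 with each cell classed on its own. The cause of these moves was not tested.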

Other observations

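Of the 24 other immediate early and feedback genes, 4 of 20 measured were past 2-fold upward and 1 downward in B cell-like cells, 8 and 3 of 23 in erythroid-like cells, 1 and 1 of 24 in fibroblast-like cells (Ccn2 and Egr3), 0 and 1 of 24 in Schwann-like cells (Ccn2) and 0 of 24 in mural-like cells. Over all genes the shares past it, up and down, were 3.48% and 5.37% in B cell-like cells and 12.9% and 8.62% in erythroid-like cells. They were 8.41% and 5.18% in fibroblast-like, 8.48% and 2.90% in Schwann-like and 3.74% and 5.16% in mural-like cells. Neutrophil-like cells had 9.16% and 13.5%, tenocyte-like cells 3.91% and 7.21%, and chondrocyte-like cells 6.21% and 6.17%. Those of the other classes are given above. No list was tested against these shares. Of the 14 other chaperones, of which 11 to 13 were measured in a class, the numbers upward and downward were 0 and 4 in neutrophil-like cells (Hspb1, Hsph1, Dnajb4 and Cryab), 0 and 1 in tenocyte-like cells (Hspb1) and 0 in chondrocyte-like, fibroblast-like, mural-like, Schwann-like, erythroid-like and B cell-like cells. Of the 7 other AP-1 and Maf genes, of which 3 to 7 were measured in a class, Batf3 was past 2-fold upward in endothelial-like (8 and 37 UMIs) and Schwann-like cells (6 and 32), Maff in chondrocyte-like and neutrophil-like cells and Fosl2 in erythroid-like cells. Downward were Fosl1 in tenocyte-like, satellite-like and erythroid-like cells and Batf in tenocyte-like cells. In fibroblast-like, mural-like and B cell-like cells 0 were past it.

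Of the unfolded protein and integrated stress response genes, 0 of 10 measured were past 2-fold in endothelial-like cells, and Ddit4, an inhibitor of mTORC1, was past it upward in chondrocyte-like (3.46, 2.54 to 4.80), tenocyte-like (2.44, 1.64 to 3.65) and fibroblast-like cells (2.23, 1.64 to 3.04), and with intervals that held 1 in satellite-like (2.28, 0.814 to 7.84) and neutrophil-like cells (2.25, 0.692 to 11.6). Gadd45a was past it upward in chondrocyte-like and erythroid-like cells and Ddit3 in neutrophil-like cells, and Asns downward in mural-like cells. Of the upstream factors 0 of 8 were past 2-fold in endothelial-like, fibroblast-like and mural-like cells and 0 of 7 in chondrocyte-like cells. Hsf2 was past it upward in B cell-like and Schwann-like cells, Elk3 and Crem upward in erythroid-like cells, Elk3 downward in neutrophil-like and satellite-like cells and Elk1 downward in tenocyte-like cells. In endothelial-like cells, Hsf1, the heat shock factor, was 12.9 and 18.9 (1.47, 1.10 to 1.98). Of the MAP kinase feedback genes, which ERK signalling induces, 3 of 5 measured were lower past 2-fold in fibroblast-like cells: Spry1 was 31.4 and 10.1 (0.322, 0.234 to 0.438), Dusp5 18.1 and 8.13 (0.448) and Spry4 8.78 and 4.34 (0.494). Dusp4 was past it downward in erythroid-like, Dusp6 in mural-like and Spry2 in neutrophil-like cells.

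A small B cell-like cluster of 35 PBS and 25 CFA cells, picked out after its values were seen, had the lowest immediate early levels of any cluster of the class, 412 and 646 CPM, at median depths of 9262 and 12002 UMIs. A cluster with 6 monocyte markers that stayed unnamed, because the granule genes Prtn3, Ctsg, Mpo and Elane led it, held 3669 in PBS and 5119 in CFA (1.40, 1.34 to 1.46), from 37 and 129 cells, with a heat shock sum of 13.7 and 53.7 (3.92, 2.07 to 8.37).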
